A study of Mus musculus with 6 samples.

Results

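Glycolysis, lactate and glycogen genes are described here in mCherry-positive cells sorted from mouse cortex, which the labels call astrocytes. The set was a fixed list of 30 gene symbols, and all 30 were found among the 24421 genes of the deposited table. Of these, 29 had a mean of at least 10 normalized counts and entered the test, as did 13028 genes of the table. The exception was Eno1. Every animal was a CD51-Flp mouse that received the vector AAV-GFAP-FSF-hM3D-mCherry after birth, so all groups carried the Gq-coupled designer receptor hM3D in cells that had Flp and used the GFAP promoter. CD51 is integrin alpha V. Clozapine-N-oxide (CNO), the receptor's ligand, or saline was given 2 times a day between postnatal days 7 and 21, and cortical cells positive for mCherry were sorted on day 21. There were 3 CNO libraries (1, 2 and 3) and 3 saline libraries (3, 4 and 5). The labels do not say whether a library came from 1 animal or from several, so a p-value covers no more than the variation among these 6 libraries, which may be technical. The CNO group had no counterpart without the receptor, so effects of CNO itself cannot be told apart from those of the receptor.

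Glycolysis splits glucose into pyruvate in the cytosol, and phosphofructokinase is one of its main points of control. Astrocytes are the main site of glycogen in the brain. They can turn pyruvate into lactate through lactate dehydrogenase and pass it on through monocarboxylate transporters, and noradrenaline and calcium signals are known to set off glycogen breakdown in them. Aldoc, the brain aldolase, is a common astrocyte marker, and Pygb and Pygm, the brain and muscle forms of glycogen phosphorylase, are both known in astrocytes.

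The shallowest library was CNO 1, with 3908076 recovered reads, and CNO 2 was the deepest, with 19224186. Totals of the saline libraries lay between 12010901 and 19052161. CNO 1 and CNO 3 stood apart by their zeros. Of the 13028 tested genes, 35.2% had no read in CNO 1, 20.1% in CNO 3, 8.93% in CNO 2 and 3.39% to 3.88% in the saline libraries. Among the 29 tested pathway genes, 3 had no read in CNO 1 and 3 others none in CNO 3, while none was at 0 in the other 4 libraries. A count of 0 allows up to 3 reads, for counting error only. The summed astrocyte markers (12 genes, Slc1a2 the most abundant) were present in every library, at 158754.5 to 503369.5 normalized counts in CNO and 168257.6 to 258560.8 in saline. Markers of other cells were present too. The 12 oligodendrocyte markers summed to 1841017.2 to 3487439.1 in CNO and 525565.9 to 752585.1 in saline, without overlap, and Mag and Myrf were at 0 in CNO 1. Mbp alone made up most of this sum, at 1585698.1 to 2963042.0 in CNO and 451368.4 to 604104.2 in saline. The 12-marker sum exceeded that of the astrocyte markers in all 6 libraries, a comparison that rests largely on Mbp. The libraries were not read as astrocyte RNA alone. The 11 microglia and macrophage markers summed to 81220.6 to 208098.7 and 106351.6 to 129991.5, with Aif1 at 0 in CNO 1. Among them Mrc1 and Pf4, known from macrophages at brain borders, had all CNO values above all saline values, and Trem2 all below (limma adjusted p from 0.488 to 0.558). The 8 endothelial markers summed to 286.3 in CNO 2 and 7832.9 in CNO 3, on both sides of the 939.9 to 2104.7 of saline. In bulk samples such as these, fewer cells of a type and less RNA per cell cannot be told apart, and no value here can be assigned to astrocytes alone.

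The promoters of 3 genes are shown because these were the members whose CNO and saline libraries did not overlap. They are Pfkfb3, Hk2 and Pfkp, all lower in CNO. Each run lies upstream of a RefSeq start (GRCm38.p6, minus strand, printed 5′ to 3′ along the gene), with bases in annotated GENCODE exons left out. Capitals mark ACGTG or its reverse complement CACGT, the core of the site bound by hypoxia-inducible factors. Pfkfb3 has 2 RefSeq starts. The run of its outer start, chr2:11554078-11554179, holds no match, and in that of the start inside the gene, chr2:11502102-11502340, the capitals form the palindrome CACGTG. The Hk2 run is chr6:82774455-82774704, and the Pfkp run, also without a match, chr13:6648778-6649021.
Pfkfb3, outer start: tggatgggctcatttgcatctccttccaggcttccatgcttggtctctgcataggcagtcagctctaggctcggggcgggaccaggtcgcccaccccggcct
Pfkfb3, inner start: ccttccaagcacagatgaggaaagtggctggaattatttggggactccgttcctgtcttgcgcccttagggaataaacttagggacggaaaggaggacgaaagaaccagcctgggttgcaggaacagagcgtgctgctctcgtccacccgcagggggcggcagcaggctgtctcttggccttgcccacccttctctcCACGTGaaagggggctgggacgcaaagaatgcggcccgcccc
Hk2: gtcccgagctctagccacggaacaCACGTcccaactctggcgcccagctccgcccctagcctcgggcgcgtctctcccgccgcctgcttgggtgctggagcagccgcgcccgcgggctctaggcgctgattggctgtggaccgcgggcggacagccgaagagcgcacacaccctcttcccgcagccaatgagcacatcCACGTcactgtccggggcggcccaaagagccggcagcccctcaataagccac
Pfkp: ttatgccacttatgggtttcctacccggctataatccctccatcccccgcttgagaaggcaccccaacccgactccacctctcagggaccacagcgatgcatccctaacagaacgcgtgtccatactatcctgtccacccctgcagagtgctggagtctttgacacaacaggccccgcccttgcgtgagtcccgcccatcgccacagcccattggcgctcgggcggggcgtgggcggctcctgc

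ACGTG on either strand was found in the 250 bases upstream of 20 of 43 RefSeq starts of the 30 genes (46.5%), belonging to 17 genes. Among all 32851 RefSeq starts the share was 16.6%. CACGTG, which contains ACGTG, was found at 6 of the 43 starts (14.0%) and at 6.02% of all starts. The cAMP response element TGACGTCA was found at 1 start, of Ldha, and at 1.55% of all starts. These matches describe letters, not occupied sites. The starts were not matched for GC or CpG content, and 1 gene can have several starts.

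No member passed the test over all genes. In limma on log2(normalized count + 1), 0 of 29 members had an adjusted p under 0.05, where 0.0154% of all genes passed as higher and 0.0% as lower. At an unadjusted p under 0.05, 0 members were higher and 3 were lower, 10.3% of the 29 against 7.25% of all tested genes, while 2.28% of all genes were higher. These counts moved with the libraries and the method. Without CNO replicate 2 there were 7 lower (24.1%, against 16.3% of all genes) and 1 higher (3.45% against 3.86%). Without CNO replicate 1 there were 4 lower (13.8% against 7.44%) and 0 higher (against 4.29%). Without CNO replicate 3 there were 3 lower (10.3% against 8.59%) and 2 higher (6.90% against 3.62%). Without any 1 of the saline libraries there were 0, where 3.95% to 4.23% of all genes were lower and 1.4% to 1.55% higher. At the same unadjusted threshold edgeR gave 1 lower (3.45% against 5.7%) and 1 higher (3.45% against 3.63%). DESeq2 gave 1 lower (3.45% against 7.15%) and 2 higher (6.90% against 4.24%). edgeR, limma-voom and DESeq2 on the recovered reads also called 0 members. The share of all genes called was 0.0% in edgeR, 0.123% (all higher) in limma-voom, and 0.53% higher and 1.38% lower in DESeq2. Groups did not overlap for 3 members, each lower in CNO. That share, 10.3%, lay near the 12.5% of all tested genes whose CNO libraries were all lower than the saline libraries, and 4.57% were all higher.

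Log2 fold changes were above 0 for 10 members and below 0 for 19. Their median was -0.57, against -0.89 over all tested genes, and 16 of the 29 lay above the latter. Among the 15 members between the quartiles of the members' mean level, 203.3 to 1158.4 normalized counts, the median was -0.38, and that of all 4700 genes at this level was -0.44. The 7395 genes that no library missed had a median of -0.09, and the 23 members among them -0.33. Without CNO 3 the median of the members was 0.06. By DESeq2, which gave an all-gene median of 0.004, the members stood at -0.03. These medians describe the set and carry no test. Fold changes are on the log2(value + 1) scale, where a library at or near 0 weighs heavily. For sparse members they were far from those of DESeq2, as for Gbe1 (-3.17 against -0.75) and Pygl (-2.43 against -0.02).

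**Figure D1:**
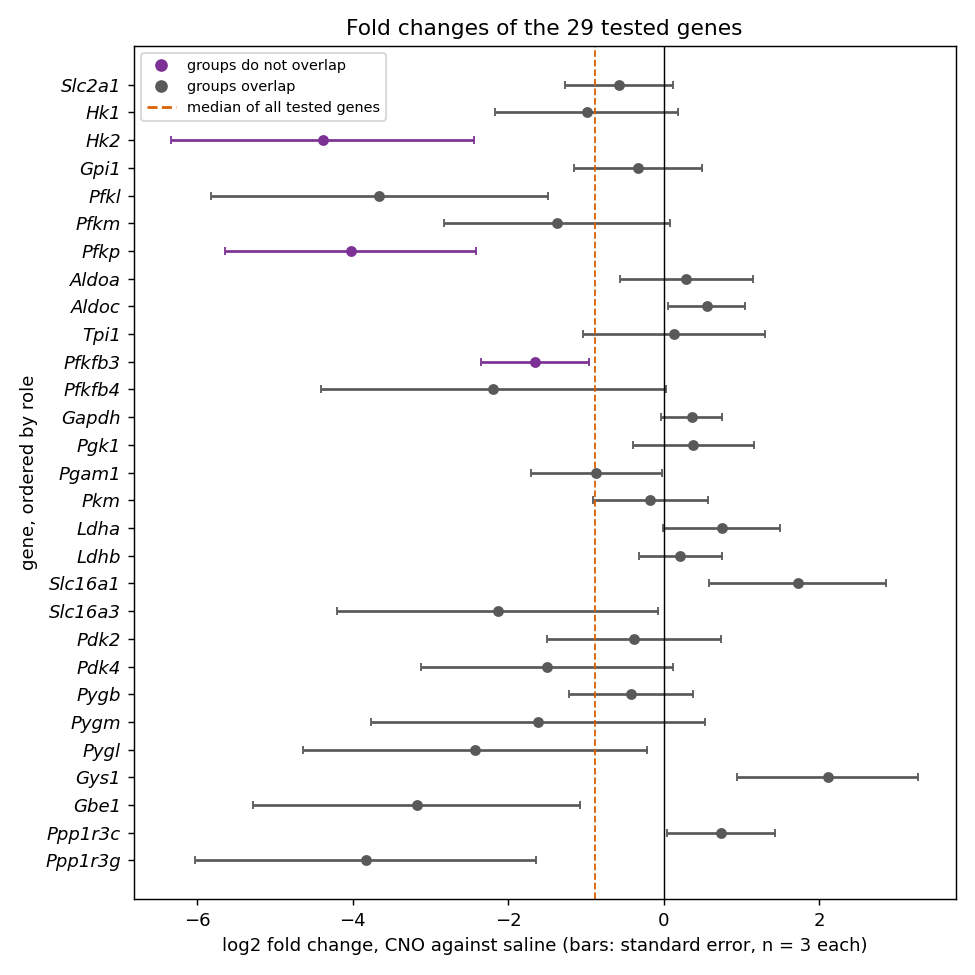
Log2 fold change of each of the 29 tested genes (x axis, CNO against saline) with its standard error (bars), in order of role. Hk2, Pfkp and Pfkfb3, coloured apart, are the genes whose groups did not overlap, and the dashed line is the median of all tested genes at -0.89.

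Glucose enters astrocytes through Slc2a1 (GLUT1), which is also abundant in brain endothelium, and is trapped by hexokinase. Slc2a1 stood at 2632.8, 1147.6 and 472.5 normalized counts in the CNO libraries 1 to 3, and saline 3, 4 and 5 held 1184.8, 2140.3 and 1846.5. The CNO values enclosed those of saline. Its log2 fold change was -0.57 ± 0.70 (SE, limma adjusted p = 0.759). Hk2, the inducible hexokinase, stood at 0, 497.2 and 105.7 in CNO and at 1095.8, 652.3 and 680.4 in saline. Every CNO library was lower than every saline library. The lowest, CNO 1, had 0 of 3908076 reads, where saline 4, the shallowest saline library but deeper than CNO 1, had 815 of 12010901. In CNO 1, 35.2% of all tested genes had no read. The ratio of means was 0.248 and the log2 fold change -4.39 ± 1.95 (limma unadjusted p = 0.0453, adjusted p = 0.522). Without CNO replicate 1 the log2 fold change was -1.77. With all libraries it was -2.07 in edgeR (unadjusted p = 0.171) and -2.00 in DESeq2 (unadjusted p = 0.139). Hk1, the main hexokinase of brain, stood at 42.3, 572.7 and 381.3 in CNO and 912.1, 228.1 and 355.3 in saline. Its groups overlapped (-0.99 ± 1.18, limma adjusted p = 0.755), and without CNO replicate 1 the sign turned to 0.15.

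The allosteric activator of phosphofructokinase is made by the Pfkfb enzymes, and Pfkfb3 is the form with the strongest kinase activity. Pfkfb3 had the smallest error of the 3 members without overlap. It stood at 376.1, 459.5 and 284.3 in CNO and at 1078.2, 1353.5 and 1056.4 in saline, from 89, 621 and 293 reads and from 1902, 1691 and 2099. The highest CNO library was below the lowest saline library by a wide gap, and no library was at 0. Means were 373.3 ± 87.6 and 1162.7 ± 165.6 (SD, n = 3 each), a ratio of 0.321. The log2 fold change of -1.65 ± 0.69 had an unadjusted p of 0.0347 and an adjusted p of 0.505 in limma. It was -1.70 in limma-voom, -1.76 in edgeR and -1.64 in DESeq2 (adjusted p = 0.458, 0.535 and 0.207), and -1.82 to -1.47 with any 1 library left out. Its adjusted p over all alternatives ran from 0.187 to 0.91. Relative to the median of all tested genes, -0.89, it stood at -0.77. The genes that no library missed, Pfkfb3 among them, had a median of only -0.09. Pfkfb3 lies on chromosome 2 at 11471433 to 11554077 (GRCm38, minus strand). Pfkfb4, a related enzyme, was sparse, at 173.3, 42.2 and 0 in CNO and 132.1, 34.4 and 151.0 in saline, and its groups overlapped (-2.19 ± 2.22, limma adjusted p = 0.717).

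Phosphofructokinase itself has a liver (Pfkl), a muscle (Pfkm) and a platelet (Pfkp) subunit. Pfkp stood at 4.23, 307.1 and 19.4 in CNO and at 578.2, 648.3 and 374.4 in saline. All CNO libraries were lower, and CNO 1 rested on 1 read. The ratio of means was 0.206 and the log2 fold change -4.02 ± 1.62, with the smallest p of the set (limma unadjusted p = 0.0294, adjusted p = 0.496). It ranged from -5.66 to -2.72 with 1 library left out. It was -2.32 in edgeR (unadjusted p = 0.14) and -2.26 in DESeq2 (unadjusted p = 0.0859). Pfkl stood at 0, 40.7 and 9.70 in CNO and 308.4, 116.1 and 23.7 in saline, where CNO 2 exceeded saline 5 (-3.66 ± 2.17, limma adjusted p = 0.592). Pfkm went from 17.5 in CNO 3 to 2273.6 in CNO 1, with 502.4 in CNO 2, while saline held 933.7, 829.2 and 469.1. The CNO libraries thus spanned the saline range on both sides. Its ratio of means, 1.25, and its log2 fold change, -1.37 ± 1.45, differed in sign. Hk2 lies on chromosome 6 at 82725025 to 82774454 and Pfkp on chromosome 13 at 6579768 to 6648777 (GRCm38, minus strand for both).

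**Figure D2:**
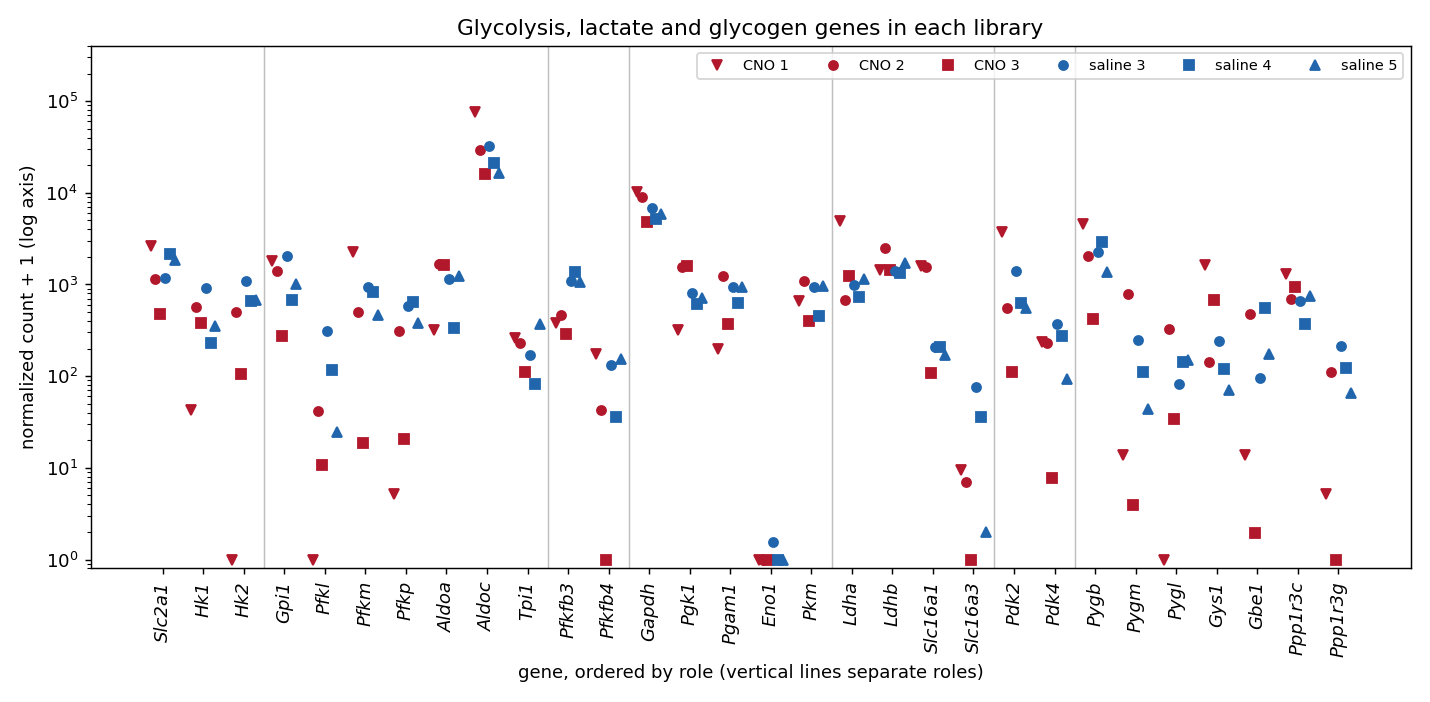
Normalized count + 1 of each gene in each library (log axis), with genes ordered by role and 1 marking a value of 0. CNO libraries are red and saline libraries blue. CNO points spread further than saline points for many genes, and Pfkfb3, Hk2 and Pfkp have all CNO points below all saline points.

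Aldoc was the most abundant member and varied most among the CNO libraries in absolute terms. It stood at 77055.9, 29035.5 and 15838.5 in CNO and at 32280.5, 21023.2 and 16494.4 in saline. CNO 1 had the highest value and CNO 3 the lowest of all 6. The log2 fold change was 0.55 ± 0.49 (limma adjusted p = 0.682), and without CNO replicate 1 it was -0.06. The summed astrocyte markers took the same order within CNO, with 503369.5, 329485.1 and 158754.5, and their part in the spread of Aldoc was not tested. Aldoa, the aldolase found in most tissues, stood at 316.9, 1684.7 and 1629.8 in CNO and 1139.5, 333.8 and 1243.1 in saline (0.29 ± 0.86, limma adjusted p = 0.904). The low libraries were CNO 1 and saline 4. Gpi1, which turns glucose 6-phosphate into fructose 6-phosphate, ranged from 275.5 to 1791.8 in CNO and from 669.2 to 2036.8 in saline. Tpi1, the triose phosphate isomerase, ranged from 109.6 to 262.0 and from 80.8 to 367.9. Neither differed beyond its spread (-0.33 ± 0.82 and 0.14 ± 1.17).

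Members of lower glycolysis, which yields ATP and pyruvate, overlapped between groups in every case tested. Gapdh, the dehydrogenase of this stretch, stood at 10083.1, 8942.3 and 4816.7 in CNO and at 6746.6, 5194.0 and 5849.1 in saline. CNO 3 was the lowest library and the other CNO libraries were the highest (0.36 ± 0.40, limma adjusted p = 0.735). Pkm, the pyruvate kinase, ranged from 395.8 to 1098.7 in CNO and from 453.8 to 953.2 in saline, and Pgam1, the phosphoglycerate mutase, from 194.4 to 1243.0 and from 629.9 to 929.7. Their log2 fold changes were -0.17 ± 0.74 and -0.87 ± 0.84. Pgk1, a kinase encoded on the X chromosome, stood at 321.2, 1541.9 and 1575.5 in CNO and 809.5, 609.9 and 710.1 in saline. The CNO libraries lay on both sides of saline (0.38 ± 0.78). Xist stood at 25.4, 21466.4 and 35032.7 in CNO and at 216.0, 35117.1 and 885.3 in saline, so CNO 2 and 3 had both high Xist and high Pgk1 while saline 4 had high Xist and the lowest saline Pgk1. With log2 Xist as a covariate, an alternative added after the data were seen, the log2 fold change of Pgk1 was 0.31. The part of sex itself in these values was not tested.

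Eno1, the main enolase outside neurons and muscle, was listed with 1 read in saline 3 and 0 in every other library. Eno1b, an entry of closely similar sequence, stood at 1386.1, 1189.0 and 190.1 in CNO and at 1039.1, 755.6 and 1129.4 in saline. Of the 50-base words in annotated Eno1b transcripts, 85.2% also occur in transcripts of another gene, most often Eno1, and 49.5% of those of Eno1 occur elsewhere. How the authors assigned reads that match more than 1 gene is a step that none of the sources used here describes, so no level can be read for Eno1 and no fold is given. The same share was 68.0% for Pgk1, 58.4% for Gapdh, 41.5% for Pgam1 and 23.7% for Pkm, and levels of these genes are uncertain to that extent. It was 0.0% for Hk1, Hk2, Pfkp, Aldoc, Slc16a1, Slc2a1 and Gys1 and 0.512% for Pfkfb3.

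Lactate genes had the highest median of the roles, 0.48, with 3 of 4 members above 0 and none past the threshold. Ldha, the subunit that favours lactate formation, stood at 4893.6, 668.1 and 1225.3 in CNO and at 987.0, 736.4 and 1160.6 in saline. CNO 1 was far above the others and CNO 2 was the lowest (0.75 ± 0.75, limma adjusted p = 0.715; -0.06 without CNO replicate 1). Ldhb, the subunit of tissues that take up lactate, varied less, with 1432.6, 2521.5 and 1421.3 in CNO and 1417.8, 1327.9 and 1735.3 in saline (0.22 ± 0.54). Slc16a1, the transporter MCT1, is known in astrocytes, endothelium and oligodendrocytes. It stood at 1584.7, 1557.5 and 106.7 in CNO and at 206.9, 207.3 and 169.6 in saline. CNO 1 and 2 were above every saline library and CNO 3 was below every one. Its log2 fold change was 1.72 ± 1.14 in limma (adjusted p = 0.617) and 2.48 in DESeq2 (adjusted p = 0.198, the lowest over the alternatives, which reached 0.91). With 1 library left out it ran from 1.07 to 3.01, the latter without CNO replicate 3. The summed oligodendrocyte markers were higher in all 3 CNO libraries, CNO 3 included, than in saline. The summed endothelial markers were highest in CNO 3, though not each of them, with Ly6c1 lowest there at 0.97. The part of these cells in the value of Slc16a1 was not tested. Slc16a3, the lactate exporter MCT4, was near the floor, with 2, 8 and 0 reads in CNO and 133, 44 and 2 in saline.

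The pyruvate dehydrogenase kinases inhibit pyruvate dehydrogenase and so hold back the use of pyruvate within mitochondria. Pdk2 stood at 3693.5, 556.4 and 108.7 in CNO and at 1403.1, 633.9 and 555.1 in saline, and Pdk4 at 236.7, 228.6 and 6.79 and at 371.3, 271.3 and 93.1. CNO 3 had the lowest value of both genes. Neither passed (-0.38 ± 1.12 and -1.50 ± 1.62, limma adjusted p = 0.906 and 0.731). The sign of Pdk2 was the other way in the ratio of means, 1.68, and without CNO replicate 3 the log2 fold changes were 0.86 for Pdk2 and 0.14 for Pdk4.

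No glycogen gene passed the test, and the groups overlapped for all 7. Gys1, the glycogen synthase of brain and muscle, stood at 1648.1, 141.3 and 683.0 in CNO and at 239.2, 117.7 and 69.0 in saline. CNO 1 and 3 were above every saline library and CNO 2 was among them. Its log2 fold change was 2.11 ± 1.17 (limma adjusted p = 0.572; 2.54 in DESeq2, adjusted p = 0.201; 0.168 to 0.91 over all alternatives). Without CNO replicate 1 it was 1.31 and without CNO replicate 2 it was 3.08. Ppp1r3c, which targets protein phosphatase to glycogen and promotes its synthesis, stood at 1301.6, 698.5 and 927.5 in CNO and 666.1, 365.8 and 743.8 in saline (0.74 ± 0.69). Ppp1r3g, another such targeting subunit, went the other way at 4.23, 110.2 and 0 against 210.9, 121.7 and 63.9 (-3.83 ± 2.19, limma adjusted p = 0.581). Gbe1, the branching enzyme, had 3 reads in CNO 1 and 1 in CNO 3 but 646 in CNO 2, within the 168 to 695 of saline.

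Among the phosphorylases, which release glucose 1-phosphate from glycogen, Pygb was the main form. It stood at 4534.4, 2053.9 and 414.2 in CNO and at 2281.2, 2936.8 and 1382.0 in saline (-0.42 ± 0.80, limma adjusted p = 0.847). Pygm stood at 12.7, 779.1 and 2.91 in CNO and 247.2, 110.5 and 42.3 in saline, and Pygl, the liver form, at 0, 329.3 and 33.0 and at 81.6, 140.9 and 148.0. CNO 2 held the highest value of both genes and CNO 1 and 3 were the 2 lowest libraries. Gbe1 shared this contrast of CNO 2 with CNO 1 and 3.

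Per length, the order of levels in saline was led by Aldoc, at 804.4 ± 268.0 RPKM (reads per kilobase of exon, scaled to the library's total), and Gapdh, at 409.1 ± 48.2 (SD, n = 3). Ldhb followed at 118.3 ± 17.9, and then Pygb at 58.1 ± 20.7, Slc2a1 at 54.7 ± 16.2 and Ldha at 52.4 ± 11.7, which lay within one another's spread. Pfkfb3 stood at 21.8 ± 3.24 and Hk2 at 14.8 ± 4.30. In CNO the same scale gave 858.2 ± 641.1 for Aldoc, 341.0 ± 127.3 for Gapdh, 4.36 ± 1.39 for Pfkfb3 and 2.45 ± 3.32 for Hk2. On normalized counts the mean of Gapdh was higher in CNO, so its direction depends on the scale.

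Shares within a family do not depend on scaling between libraries. Hk2 made up 0%, 46.5% and 21.7% of hexokinase reads (Hk1 and Hk2) in CNO 1, 2 and 3 and 54.6%, 74.1% and 65.7% in saline 3, 4 and 5. All CNO shares were below all saline shares. The family had only 10 reads in CNO 1, where the exact 95% Clopper-Pearson interval reached 30.8%. The difference of -42.1 percentage points had an exact permutation p of 0.1, the smallest that 3 against 3 libraries allow (2-sided, adjusted p = 0.3 over 6 shares). Slc16a3 took 0.531%, 0.379% and 0% of the reads of Slc16a1 and Slc16a3 in CNO and 26.7%, 14.5% and 0.590% in saline (exact permutation p = 0.1, adjusted p = 0.3). These did not overlap either, but saline 5 lay within the interval of CNO 1, 0.0643% to 1.90%.

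The other 4 shares overlapped between groups (exact permutation p from 0.7 to 0.9). Pfkm took 51.3%, 52.0% and 54.1% of phosphofructokinase reads in the saline libraries, and 99.8%, 59.1% and 37.5% in CNO. Ldhb took 59.0%, 64.3% and 59.9% of lactate dehydrogenase reads in saline and 22.6%, 79.1% and 53.7% in CNO. In both families the saline shares lay close together and the CNO shares lay far apart, with a phosphofructokinase total of only 48 reads in CNO 3. Aldoc held 90.7% to 99.6% of aldolase reads in CNO and 93.0% to 98.4% in saline. Pygb held 99.7%, 65.0% and 92.0% of phosphorylase reads in CNO and 87.4%, 92.1% and 87.9% in saline, CNO 2 being the low library.

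**Figure D3:**
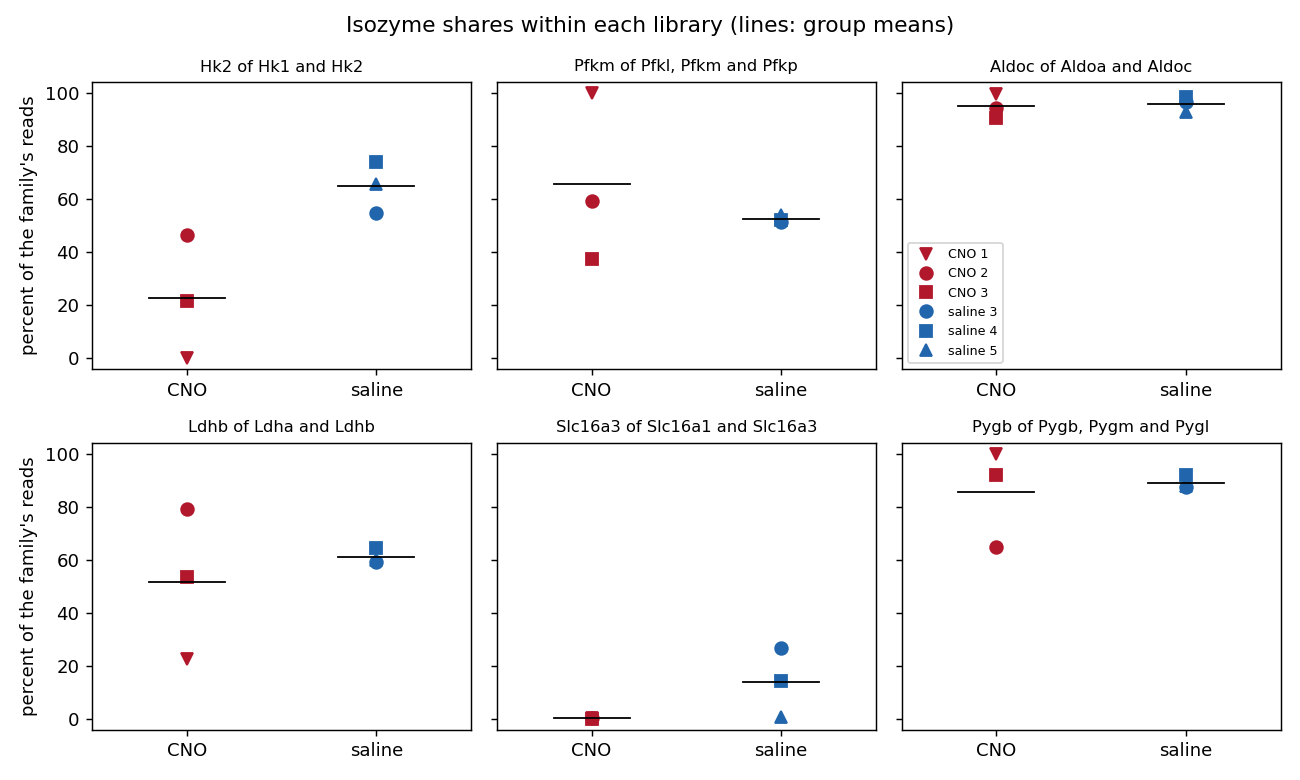
Percent of a family's reads taken by 1 isozyme in each library, for 6 families, with lines at group means. For Hk2 the highest CNO point is at 46.5% and the lowest saline point at 54.6%, and for Ldhb and Pfkm the 3 saline points lie together while the CNO points are spread.

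Summed over roles, all members took 0.700%, 0.414% and 0.188% of reads in CNO 1, 2 and 3 and 0.604%, 0.443% and 0.405% in saline 3, 4 and 5, which overlap. Aldoc alone made up 66.7% of them in CNO 1, and elsewhere 42.4% to 54.2%. Glucose entry (Slc2a1, Hk1 and Hk2) took 0.0162%, 0.0156% and 0.00578% in CNO and 0.0324%, 0.0314% and 0.0301% in saline. Pfkfb3 and Pfkfb4 together took 0.00333%, 0.00353% and 0.00171% and 0.0123%, 0.0144% and 0.0126%. These were the 2 of 7 roles without overlap, both lower in CNO, and they hold 2 of the 3 genes named above. Mbp, a myelin gene, made up 15.6% ± 5.65 of all CNO reads and 5.35% ± 0.875 of saline reads (SD, n = 3 each), which lowers every other share in CNO, yet with Mbp left out of the total both roles were still without overlap (0.00691% to 0.0197% against 0.0321% to 0.0339%, and 0.00205% to 0.00445% against 0.0129% to 0.0152%). No test was made of these sums, and how often sums of other genes fall without overlap on this scale was not computed. Shares of all reads also set CNO lower against saline than the normalized counts do. Gapdh took a mean of 0.051% of reads in CNO and 0.0612% in saline, but averaged 7947.4 and 5929.9 normalized counts.

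**Figure D4:**
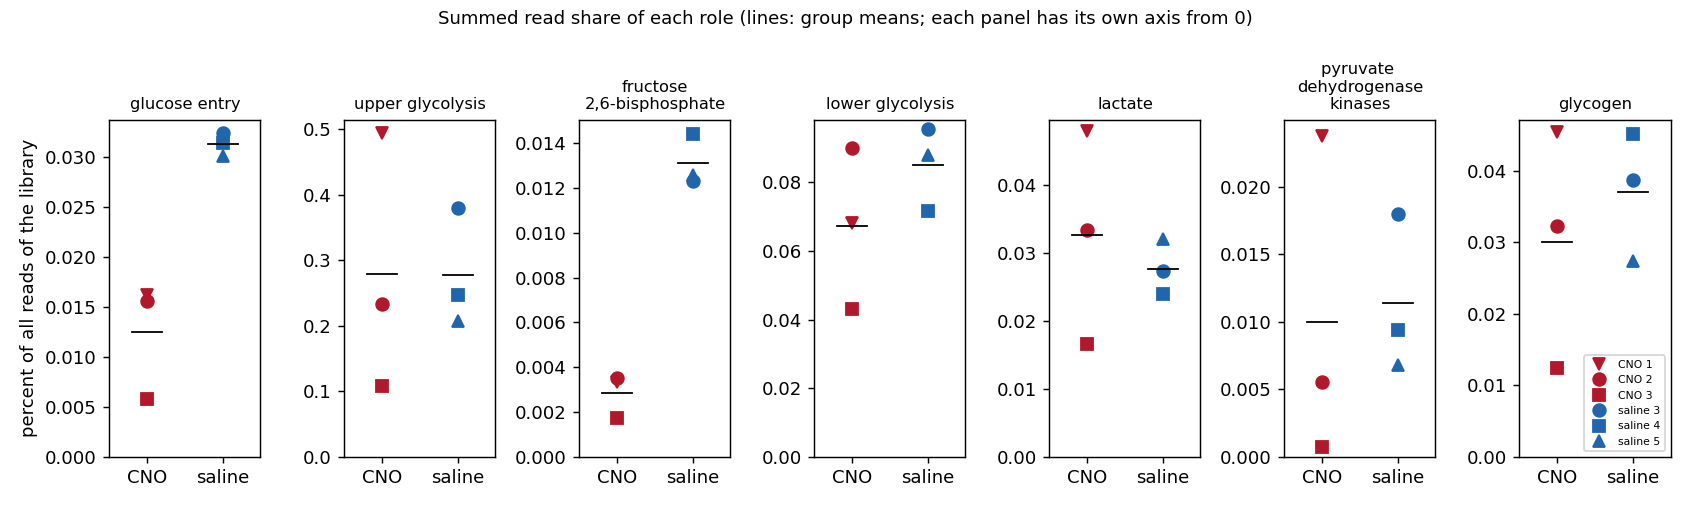
Percent of each library's reads taken by the summed genes of each role, with lines at group means and a separate axis from 0 in each panel. CNO points lie below all saline points for glucose entry and for the 2 Pfkfb genes, and overlap in the other 5 panels.

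The wider pathway was read from 95 further genes, of which 94 were in the table and 77 were tested. None passed in limma, and 2 of the 77 were higher and 6 lower at an unadjusted limma p under 0.05. The lower ones were 7.79% of the 77, against 7.25% of all tested genes, and 2.28% of all tested genes were higher. The median log2 fold change of the further genes was -0.75, against -0.89 over all tested genes. Groups did not overlap for 12, with 2 of the 77 higher and 10 lower, where 4.57% and 12.5% of all tested genes were so. The clearest was Ndrg1, known both as a hypoxia-induced gene and from myelinating glia. It stood at 2129.9, 2525.2 and 3031.7 in CNO and at 306.7, 580.3 and 330.1 in saline, a log2 fold change of 2.70 ± 0.62 (limma adjusted p = 0.488; DESeq2 adjusted p = 0.00708; limma-voom 0.136; quantile scaling 0.648). The sum of the oligodendrocyte markers was likewise higher in all CNO libraries, with 7 of the 12 markers higher without overlap. Mag, Opalin and Cldn11 had lower means in CNO. The part of oligodendrocyte RNA in the value of Ndrg1 was not tested. Epas1, a hypoxia-inducible factor, stood at 6862.9, 7170.3 and 4707.1 in CNO and at 3670.6, 3124.9 and 2822.4 in saline (0.95 ± 0.40, limma adjusted p = 0.509; 0.25 with quantile scaling, adjusted p = 0.94). Hif1a did not stand apart, with 1444.5 to 2810.3 in CNO and 1563.7 to 1934.8 in saline.

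Lower further genes were mostly sparse. The CNO means of Egln2, Nhlrc1, Slc2a12, Slc2a8 and Eno3 were under 10. They thus reached the mean needed for the test only through saline, which limits what their folds and p-values can show. Egln2, a prolyl hydroxylase that marks hypoxia-inducible factors for breakdown, stood at 0, 8.88 and 0 in CNO and at 109.4, 119.3 and 99.7 in saline (-5.68 ± 1.97, limma adjusted p = 0.488). Nhlrc1, the ubiquitin ligase malin that acts on glycogen metabolism, stood at 0, 0 and 4.85 against 69.7, 118.5 and 47.3. The sugar transporters Slc2a12 and Slc2a8 were at 0 to 7.40 and at 0 to 6.66 in CNO and at 28.7 to 214.9 and 34.7 to 497.2 in saline, and DESeq2 called Slc2a8 as lower (adjusted p = 0.0249, against 0.354 in limma-voom and 0.819 with quantile scaling). Pdhb, a subunit of pyruvate dehydrogenase, was better covered, at 21.1, 139.1 and 133.9 in CNO and 692.2, 567.5 and 289.4 in saline (-2.70 ± 1.21, limma adjusted p = 0.522). Eno3, the muscle enolase, stood at 0, 4.44 and 0 in CNO and at 94.7, 419.4 and 3.02 in saline, where CNO 2 exceeded saline 5. The other further genes toward higher values overlapped between groups. Slc2a13, a proton-coupled inositol transporter, stood at 2780.7, 264.9 and 20.4 against at most 83.2 in saline, with 20.6 in saline 5. DESeq2 called it as higher (adjusted p = 0.034, against 0.603 in limma and 0.648 with quantile scaling). Epm2aip1, a partner of laforin, stood at 1749.5, 293.7 and 1618.2 against 413.3, 352.2 and 421.2. Hkdc1, a hexokinase-like gene, was listed at 0 in every saline library and at 8.45, 102.8 and 0 in CNO. It entered the test only through CNO.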

How the data were processed

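Gene expression was measured by RNA-seq in 6 libraries, made from 10 ng of total RNA each per the labels' protocols. The submitters' processing notes list Trimmomatic 0.4, FastQC 0.10.1, MultiQC 0.9, STAR 2.5.0a, DESeq2 1.20.0 and build mm10. The read counter, annotation, strand handling and treatment of reads matching several genes were not found in the sources used here. Values were deposited as a signal: the authors scaled each library's counts by its own size factor. In every library 100% of values were whole multiples of 1 step (tolerance 1e-06), worth 4.23 normalized counts per read in CNO 1 and 0.503 to 0.970 elsewhere, so whole reads were recovered. The members, gene lists, roles and tests were chosen with earlier results of these data known.

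Each gene was tested with limma 3.58.1 in R 4.3.3 on log2(normalized count + 1), with a mean of at least 10, a variance trend, 2-sided tests and Benjamini-Hochberg adjustment over all genes (threshold 0.05). edgeR 4.0.16, DESeq2 1.42.0 and limma-voom ran on recovered reads. The limma fit was also run on simulated counts as a check of the code, and no result of that run is used here. Per-length levels used merged exons of basic protein-coding transcripts (GENCODE mouse release 21, GRCm38, the assembly of mm10). Isozyme shares used exact permutation tests. Named genes were every member, up to 5 further genes per direction with the smallest p, and markers. Pdhb, next by p among the lower further genes, and Hif1a fall outside this rule. Hif1a was added after its values were seen. Roles were assigned from textbook knowledge. Promoters came from RefSeq tables. Other settings tried are in the closing section.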

Additional observations from a re-analysis of the deposited data

How the results depend on the processing

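No member was called under any of the 19 alternatives. No paired analysis was possible because the groups share only replicate number 3. The count of all genes called was 2. It was 0 with a mean of at least 50, with only genes above 0 in every library, with quantile scaling, without the variance trend and in edgeR. It was 11 with array weights, 16 in limma-voom, 249 in DESeq2 and 14 with log2 Xist as a covariate, an alternative added after the data were seen. It was 0 to 2 with 1 library left out, with 2 only without CNO replicate 1. The cause was not tested.

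Hk2, Pfkp, Pfkfb3, Pfkfb4, Pfkl, Pgam1, Pygl, Gbe1 and Ppp1r3g were lower, and Gys1, Slc16a1 and Ppp1r3c higher, under every alternative in which they were tested. With only genes above 0 in every library, Hk2, Pfkfb4, Pfkl, Pygl and Ppp1r3g were not among those tested. Quantile scaling turned the log2 fold change of Aldoc to -0.32, Gapdh to -0.38, Ldhb to -0.30, Slc16a3 to 0.64 and Pygm to 0.95. edgeR and DESeq2 gave 0.11 and 0.33 for Pfkm, -0.18 and -0.032 for Tpi1, 0.93 and 0.99 for Pygm and 0.52 and 0.75 for Pdk2. DESeq2 gave 0.087 for Pygb, limma-voom -0.15 for Tpi1 and array weights 0.025 for Pkm.

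Leaving out each library turned these members, with ranges of -1.71 to 0.15 for Hk1, -0.84 to 0.51 for Gpi1, -2.89 to 0.58 for Pfkm, -0.32 to 1.09 for Aldoa, -0.061 to 1.08 for Aldoc, -0.40 to 0.69 for Tpi1, -0.0023 to 1.14 for Pgk1, -0.54 to 0.20 for Pkm, -0.062 to 1.37 for Ldha, -0.056 to 0.36 for Ldhb, -1.18 to 0.055 for Slc2a1, -1.19 to 0.54 for Pygb, -1.68 to 0.86 for Pdk2 and -2.33 to 0.14 for Pdk4. The difference in isozyme share (percentage points) turned for Pfkm (-4.18 to 27.0), Aldoc (-3.41 to 1.05), Ldhb (-22.9 to 5.31) and Pygb (-10.7 to 6.73), and that of the summed read share (percent) from -0.183 to 0.0728. Hk2 kept its direction (-53.9 to -30.7), as did Slc16a3 (-20.3 to -7.25). Division by gene length turned no share. Precision is lowest in CNO 1 and CNO 3, where 9 and 8 of 29 members had under 20 reads. CNO 3 had 17102657 reads in all, and saline 4, with 12010901, had 0 such members.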

Other observations

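Relative to the summed astrocyte markers, a measure chosen after the data were seen, Aldoc was steadier than its normalized counts. It stood at 153.0, 88.1 and 99.8 per 1000 marker counts in the CNO libraries 1 to 3, against 125.0, 125.0 and 86.7 in saline. Gapdh stood at 27.1 and 30.3 in CNO 2 and 3, with a lower value in CNO 1, and at 26.1, 30.9 and 30.8 in saline. On this scale Pfkfb3 was at 0.747, 1.39 and 1.79 in CNO and 4.17, 8.04 and 5.56 in saline. Hk2 was at 0, 1.51 and 0.666 and at 4.24, 3.88 and 3.58, and Pfkp at 0.0084, 0.932 and 0.122 and at 2.24, 3.85 and 1.97. These 3 genes are shown because their normalized counts did not overlap, so the values on this scale are a description.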
